A study of Mus musculus with 14 samples.

Results

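Aid-/- iPS clones were compared with Aid+/+ mouse embryonic fibroblasts (MEFs) for the DNA that a methyl-CpG binding domain protein pulls down (MBD-seq). The comparison holds 7 of the 14 samples of the series. These are the 4 Aid-/- iPS clones 979F1, 979F3, 981E1 and 981E4 and the 3 cultures MEF#1, MEF#2 and MEF#3, chosen by their genotype and cell type in the labels. Together they carried 461525 of the 1012200 autosomal peaks of the series, a peak being a stretch of the genome where MACS found more sequenced tags than its surroundings. The question was whether methylation of the fibroblast genome is erased, and methylation of the pluripotent genome gained, in cells without Aid.

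The iPS clones lacked Aid, carried a Nanog-GFP reporter, were male, had a mixed C57BL6, DBA and 129S4 background, and were taken at passage 6 on gelatin with puromycin. The MEFs had both Aid alleles, the same reporter, sex and strain mixture, and were taken at passage 3. They were grown from individual mid-gestation embryos. Each iPS sample is a clone, made with retroviruses for Klf4, Sox2 and Oct3/4, and for some clones c-Myc. No Aid-/- MEF was among the samples, so cell type and genotype cannot be told apart between these groups. For this reason 4 Aid+/+ iPS clones (967B2, 967B4, 979B1 and 979B3, also passage 6) and 3 ES lines (RF8 of strain 129SV, MG1.19 of 129Ola and B6 ES of C57BL6) were used for reference.

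In mammals, most cytosines of CpG dinucleotides are methylated, except at CpG-rich promoters, and the pattern differs between cell types. When fibroblasts become iPS cells, genes of the pluripotency network lose methylation at their regulatory DNA and other regions gain it. Aid deaminates cytosine in activated B cells, where it diversifies antibody genes, and deamination followed by repair has been proposed as a route to remove methylated cytosine. An MBD pull-down favours DNA with several methylated CpGs close together, so the absence of a peak does not measure the absence of methylation.

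The libraries differed in depth and complexity. Total tags were similar, with 24950886 to 31281996 in the 4 Aid-/- clones and 27563519 to 30113820 in the 3 MEFs. After removal of duplicate tags, 6654272 to 11457860 remained in the clones and 17513215 to 19603100 in the MEFs, and the duplicate rate was 54.0 to 79.0% in the clones and 29.0 to 42.0% in the MEFs. The part of this difference in the results below was not tested. The lists of 981E1 and MEF#1 were made with MACS 1.4.0rc2 and the other 5 with MACS 1.4.1.

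The Aid-/- iPS clones had more peaks than the MEFs, and a larger share of their tags lay in them. The autosomal peak number was 87338 in 979F1, 87965 in 979F3, 86338 in 981E1 and 65859 in 981E4, against 45572 in MEF#1, 54953 in MEF#2 and 33500 in MEF#3. The groups did not overlap, but the difference of 37200 peaks gave p = 0.0571 in an exact two-sided permutation test (0.0762 after Benjamini-Hochberg adjustment over 8 measures), where the smallest p the design allows is 0.0286. Peaks covered 54.8 ± 4.90 Mb in the clones and 36.0 ± 6.49 Mb in the MEFs (mean ± SD, n = 4 and 3, as throughout). They held 53.2, 50.3, 58.0 and 46.3% of the filtered tags in 979F1, 979F3, 981E1 and 981E4, against 25.2, 25.8 and 18.05% in the MEFs. The median fold enrichment of a peak, its height over the local background, was 16.0 ± 0.818 in the clones and 13.1 ± 1.24 in the MEFs. For each of these 3 measures the groups did not overlap (exact permutation p = 0.0286, adjusted p = 0.0457). With each sample cut to its 33500 strongest peaks, the difference in fold enrichment moved from 2.86 to 9.23 and that in the share of tags from 28.9 to 17.1 percentage points, clones minus MEFs.

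The peaks of the clones lay in DNA with slightly fewer CpGs. The median CpG density of a peak was 2.96, 2.99, 2.77 and 3.02 per 100 bp in 979F1, 979F3, 981E1 and 981E4, and 3.31, 3.04 and 3.14 per 100 bp in the MEFs. The highest clone, 981E4, and the lowest culture, MEF#2, were almost level. The median GC content was 50.1 ± 0.355% in the clones and 50.7 ± 0.265% in the MEFs, again without overlap (both measures: exact permutation p = 0.0286, adjusted p = 0.0457). When every sample was cut to its 33500 strongest peaks, the difference in CpG density shrank to -0.093 per 100 bp (exact permutation p = 0.40) and that in GC content grew to -1.03 percentage points. Promoters, from 1000 bp before to 500 bp after a start site, held 3.25 ± 0.725% of the peaks in the clones and 3.38 ± 0.214% in the MEFs (exact permutation p = 0.714). The clones themselves spread from 2.47% in 981E1 to 4.22% in 981E4. Among the 33500 strongest peaks of each sample, the promoter share differed by -0.941 percentage points, clones minus MEFs (exact permutation p = 0.0286, not adjusted). DNA between genes held 44.9 ± 0.747% and 47.1 ± 1.39% (exact permutation p = 0.0857, adjusted p = 0.098).

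Within the samples of MACS 1.4.1 the same directions were seen for the measures that passed. Peaks covered 52.7 Mb on average in 3 clones and 37.1 Mb in 2 MEFs, held 49.9 and 21.9% of the tags, and had a median fold enrichment of 15.9 and 12.4. The smallest p this split allows in an exact permutation test is 0.10, which these measures gave. For MACS 1.4.0rc2 there is 1 sample a group. There, 981E1 covered 61.2 Mb and MEF#1 33.9 Mb.

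**Figure D1:**
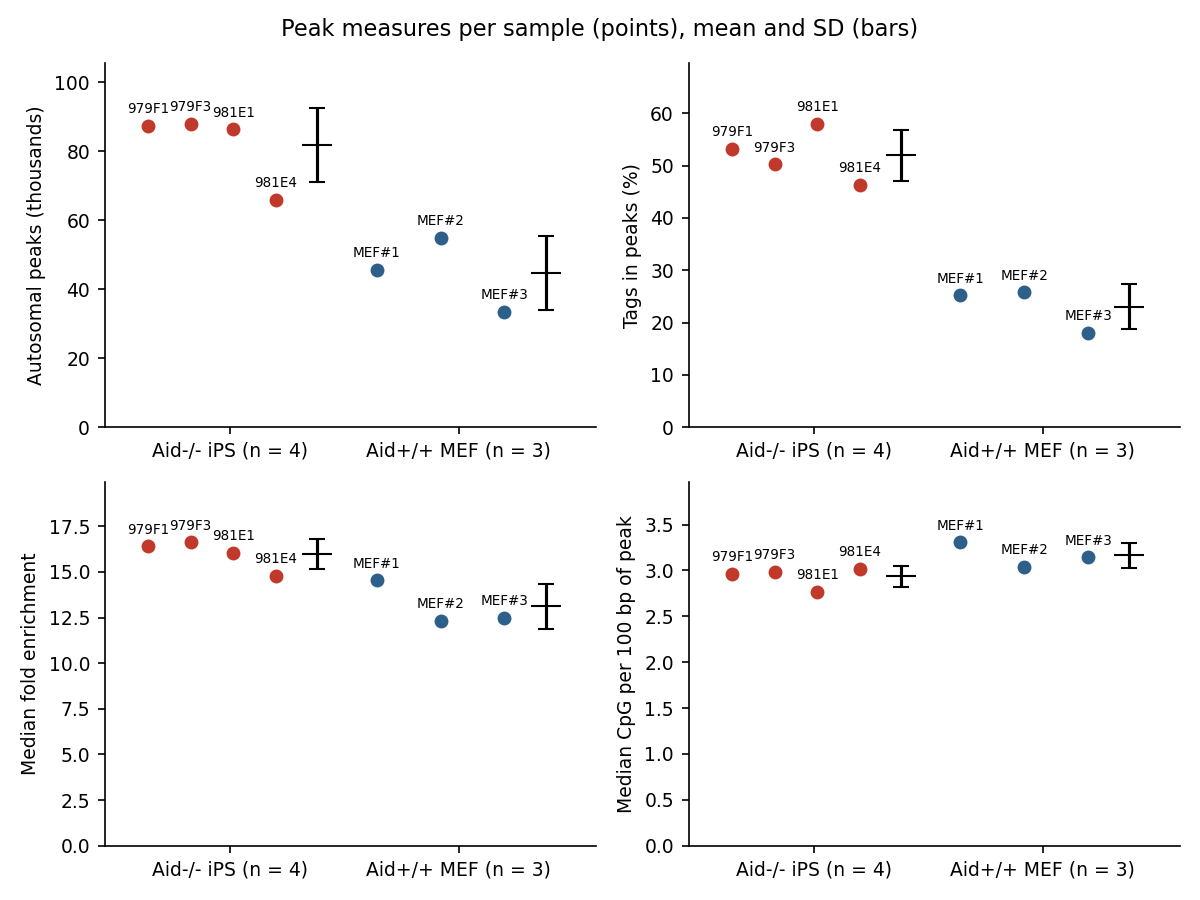
Autosomal peak number (axis in units of 1000 peaks), share of filtered tags in peaks (%), median fold enrichment, and median CpG density of peaks (per 100 bp), with 1 point per sample and the mean ± SD beside each group. The 4 Aid-/- iPS clones lie above the 3 MEFs in the first 3 panels and below them in the last, and 981E4 has the fewest peaks of the clones, 65859.

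Most fibroblast peaks were found again in the Aid-/- iPS clones. The 3 MEFs shared 29755 autosomal stretches, of which 24467 (82.2%) overlapped a peak of all 4 clones. Only 1012 (3.40%) overlapped a peak of no clone. These stretches, present in every fibroblast culture and in no clone, are called MEF DMRs (differentially methylated regions). By clone, 91.9% of the MEF stretches had a peak in 979F1, 90.5% in 979F3, 85.4% in 981E1 and 92.4% in 981E4. The clone with the fewest tags after duplicate removal, 981E1, also had the lowest share.

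In the other direction, a larger share of what the clones had in common was without a fibroblast peak. The 4 clones had 56269 stretches in common, of which 12240 (21.8%) had no peak in any MEF, here called Aid-/- iPS DMRs. A further 9237 had a peak in 1 MEF and 10225 in 2. The remaining 24567 (43.7%) had a peak in all 3 MEFs and are called commonly methylated regions (CMRs). By culture, 64.7% of the clones' stretches had a peak in MEF#1, 73.1% in MEF#2 and 46.0% in MEF#3. Over DMRs and CMRs together, the DMRs of both kinds made up 35.04% of 37819 regions.

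**Figure D2:**
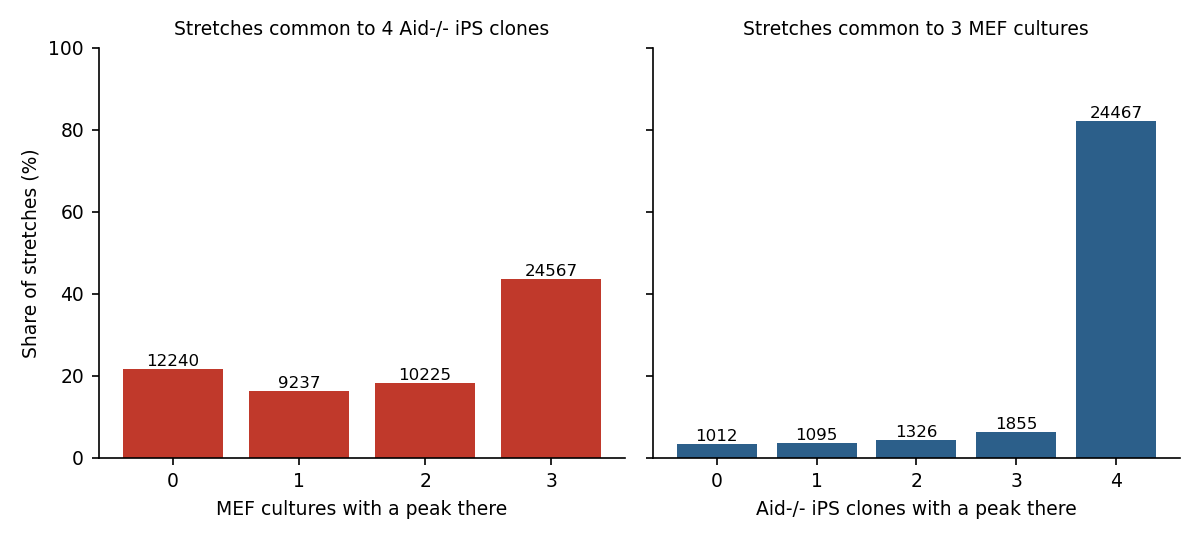
Share (%) of the stretches common to the 4 Aid-/- iPS clones by the number of MEFs with a peak there (left), and of the stretches common to the 3 MEFs by the number of Aid-/- iPS clones with a peak there (right), with the number of stretches above each bar. The tallest bars are those with a peak in every sample of the other group, 43.7% and 82.2%.

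The excess of Aid-/- iPS DMRs over MEF DMRs depended on how many peaks each list held. With each sample cut to its 33500 strongest peaks, the order turned, with 2209 Aid-/- iPS DMRs and 4991 MEF DMRs. It also depended on single samples. Aid-/- iPS DMRs numbered 21424 without 981E4 and 18913 without MEF#2, and MEF DMRs numbered 1527 without 981E4 and 1532 without MEF#3. Within the pair of MACS 1.4.0rc2, 981E1 had 48629 stretches without a peak in MEF#1, and MEF#1 had 7724 without a peak in 981E1.

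The Aid+/+ iPS clones gave counts of the same order against the same MEFs, which both comparisons share. Of 61635 stretches common to the 4 Aid+/+ clones, 17371 (28.2%) had no peak in any MEF. Of the 29755 MEF stretches, 1895 (6.37%) had a peak in no Aid+/+ clone and 79.2% in all 4.

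The other pluripotent samples, which played no part in defining the DMRs, were read at them. At the 12240 Aid-/- iPS DMRs, a peak was present in 84.2% in 967B2, 94.1% in 967B4, 97.8% in 979B1 and 97.8% in 979B3. At all 56269 stretches common to the Aid-/- clones these shares were 94.6, 95.9, 98.1 and 98.2%. The ES lines differed widely at the Aid-/- iPS DMRs, with peaks in 94.1% in B6 ES, 48.1% in RF8 and 17.4% in MG1.19. At all 56269 stretches they had 98.2, 71.5 and 45.6%. The order of the ES lines follows their peak numbers, which were 101951, 56045 and 31650. At the 1012 MEF DMRs, a peak was present in 16.2% in 967B2 and in 4.05 to 5.63% in the other 3 Aid+/+ clones. B6 ES had a peak at 64.5% of the MEF DMRs, RF8 at 10.5% and MG1.19 at 4.45%. All of these shares were lower than at all 29755 stretches common to the MEFs. There, the Aid+/+ clones had 82.6 to 91.3%, B6 ES 97.0%, RF8 77.1% and MG1.19 58.0%.

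The DNA of the DMRs was described by its length, place and base content, with no test. Aid-/- iPS DMRs had a median length of 403 bp, a GC content of 50.3% and 3.11 CpGs per 100 bp, and a median of 25.8 tags per clone. CMRs were longer and richer, at 610 bp, 51.6%, 3.88 CpGs per 100 bp and 95.0 tags. MEF DMRs had 616 bp, 57.5% GC and 4.17 CpGs per 100 bp. Among MEF DMRs, 80 (7.91%) lay at promoters and 288 (28.5%) in exons, against 3.42% and 21.7% of all MEF stretches. Among Aid-/- iPS DMRs, 288 (2.35%) lay at promoters and 2228 (18.2%) in exons, against 2.58% and 21.0% of all stretches common to the clones. By chromosome, Aid-/- iPS DMRs made up 19.9% (chromosome 16) to 23.9% (chromosome 19) of the clones' stretches. MEF DMRs made up 2.34% (chromosome 13) to 4.76% (chromosome 8) of the MEF stretches. The 1-Mb window with the most Aid-/- iPS DMRs was chromosome 4 from 152000001 to 153000000, which holds the cell adhesion gene Ajap1, where 35 of 72 stretches were DMRs.

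The DNA of single DMRs is shown at a few places. The windows of 150 bp below are centred on the peak summits, are printed on the plus strand of NCBI build 37 with each CpG in capitals, and were chosen from the leading regions and promoters of each kind that overlap no UTR. For the Aid-/- iPS DMRs they are an exon of the zinc finger gene Zfp784 (chr7:4987392-4987541), a place between genes nearest to Ror2, a receptor for Wnt5a (chr13:53388610-53388759), and the promoter of Sohlh1, a transcription factor of germ cell development (chr2:25702161-25702310).
Zfp784 exon: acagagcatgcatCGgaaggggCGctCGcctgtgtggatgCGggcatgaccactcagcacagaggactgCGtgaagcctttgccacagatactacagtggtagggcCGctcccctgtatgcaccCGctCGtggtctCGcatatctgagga
near Ror2: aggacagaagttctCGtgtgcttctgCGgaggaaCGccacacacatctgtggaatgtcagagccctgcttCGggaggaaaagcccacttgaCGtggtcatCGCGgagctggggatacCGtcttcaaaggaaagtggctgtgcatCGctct
Sohlh1 promoter: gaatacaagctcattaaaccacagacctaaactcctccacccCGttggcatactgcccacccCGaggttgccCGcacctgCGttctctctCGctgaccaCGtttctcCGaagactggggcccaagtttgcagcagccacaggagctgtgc

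These windows hold 9, 9 and 7 CpGs. The window printed as Sohlh1 promoter centres on the peak counted at that promoter but lies inside the gene (25698515 to 25702768). For the MEF DMRs the first window lies in an exon of Lrp8, a reelin receptor (chr4:107518885-107519034). The other, at Nr2f1, a nuclear receptor of neural and neural crest development (chr13:78334533-78334682), is printed as Nr2f1 promoter. It centres on the peak counted at that promoter but lies inside the gene (78328234 to 78339018), and the DMR was placed in an intron.
Lrp8 exon: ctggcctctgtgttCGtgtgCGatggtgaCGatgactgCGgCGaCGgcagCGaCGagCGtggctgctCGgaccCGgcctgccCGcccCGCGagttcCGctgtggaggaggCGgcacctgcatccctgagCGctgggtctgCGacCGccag
Nr2f1 promoter: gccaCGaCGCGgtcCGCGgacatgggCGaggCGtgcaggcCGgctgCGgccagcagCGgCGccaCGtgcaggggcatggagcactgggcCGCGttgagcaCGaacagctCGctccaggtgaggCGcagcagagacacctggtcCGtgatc

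These hold 19 and 18 CpGs. Over the windows of all leading regions and promoters that overlap no UTR, the number was 7 to 13 on the clones' side and 9 to 25 on the MEFs' side, so the ranges overlapped.

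At the Zfp784 exon (chr7:4986883-4988133) the 4 clones had 138, 121, 108 and 133 tags at fold enrichments of 22.97 to 27.25. All 4 Aid+/+ clones and all 3 ES lines also had a peak there. Near Ror2 (chr13:53388390-53388968) they had 106, 110, 70 and 103 tags at 34.78 to 41.09, and again every Aid+/+ clone and ES line had a peak. In an intron of 2010107G23Rik (chr10:61590421-61591107) the fold enrichment was 38.3 ± 3.41, and all 4 Aid+/+ clones but only 2 ES lines had a peak. The strongest of all lay over an exon of Sfi1 and the predicted gene Gm11400 (chr11:3049169-3051900), with 2051, 2129, 2207 and 2096 tags at a fold enrichment of only 14.4 ± 1.01. Tags there hardly differed between clones whose filtered totals ranged from 6654272 to 11457860.

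Of the strongest MEF DMRs, the Lrp8 exon (chr4:107518386-107519471) had 497, 410 and 599 tags in MEF#1, MEF#2 and MEF#3, at fold enrichments of 17.57 to 20.53, with a peak in no Aid+/+ clone and in 1 ES line. Another 2 lay over predicted genes 6.10 kb from Gm13139 (chr4:146560791-146562471, fold enrichment 17.9 ± 0.989) and between genes 6.22 kb from the sodium channel gene Scn8a (chr15:100882582-100885040, 9.56 ± 0.412). Both likewise had a peak in no Aid+/+ clone and in 1 ES line.

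To ask what was lost and gained without Aid, regions were chosen from the MEFs and ES lines alone and then read in the iPS clones of both genotypes. The MEFs were all Aid+/+, so the regions do not come from fibroblasts of the Aid-/- clones' own genotype. The number of regions hung on single ES lists. Without B6 ES there were 6308 fibroblast regions, and with B6 ES as the only ES line there were 46225 ES regions. At 622 regions with a peak in all 3 MEFs and no ES line, a peak was present in 24.8% in 979F1, 17.0% in 979F3, 6.11% in 981E1 and 36.2% in 981E4. The Aid+/+ clones had 23.2% in 967B2, 6.11% in 967B4, 5.47% in 979B1 and 6.59% in 979B3. The mean was 21.0 ± 12.7% without Aid and 10.3 ± 8.56% with Aid. The difference of 10.7 percentage points lay within the spread between clones, and the ranges overlapped (exact two-sided permutation p = 0.229, adjusted p = 0.457 over 2 measures). It was 5.64 without 981E4 and 15.7 without 981E1 (exact permutation p = 0.343 and 0.0857), 4.22 at a peak p of at most 1e-10 and 1.44 with the same number of strongest peaks. The clones 979F1, 979F3, 979B1 and 979B3 carry by their names the number of an experiment that made both genotypes. Within these 4 the Aid-/- clones, at 24.8 and 17.0%, did not overlap the Aid+/+ clones, at 5.47 and 6.59%, and 2 clones of each genotype are too few for a test. Their duplicate rates also differed, at 61.0% in 979F1, 64.0% in 979F3, 65.0% in 979B1 and 73.0% in 979B3, and the part of this was not tested. The clones at which the genotypes overlap, 981E1 and 967B2, carry other numbers. Of the 622 regions, 311 (50.0%) had no peak in any Aid-/- clone and 8 had one in all 4; in the Aid+/+ clones these numbers were 452 (72.7%) and 12. No region had a peak in all 4 clones of one genotype and in none of the other.

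At 2384 regions with a peak in all 3 ES lines and no MEF, a peak was present in 94.6, 94.1, 93.3 and 75.3% in 979F1, 979F3, 981E1 and 981E4. The Aid+/+ clones 967B2, 967B4, 979B1 and 979B3 had 86.8, 94.7, 97.1 and 96.4%. The means were 89.3 ± 9.39% and 93.7 ± 4.73%, a difference of -4.41 percentage points (exact two-sided permutation p = 0.457, adjusted p = 0.457). Among the 4 clones of the shared experiment, the Aid-/- clones had 94.6 and 94.1% and the Aid+/+ clones 97.1 and 96.4%. The pooled difference rested on 981E4, and without this clone the sign turned, to 0.273 (exact permutation p = 1.0). All 4 Aid-/- clones had a peak at 1695 of these regions (71.1%) and none did at 28. In each clone of both genotypes the share was larger at the regions of the ES lines than at the fibroblast regions absent from ES lines. These p-values do not show that the genotypes act alike.

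**Figure D3:**
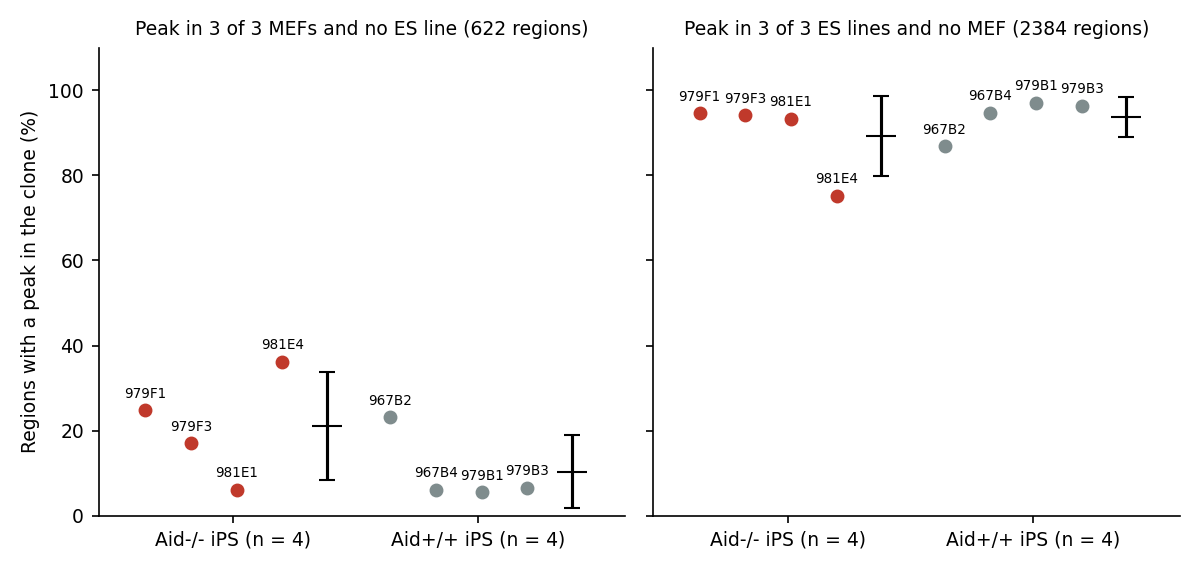
Share (%) of 622 regions with a peak in 3 MEFs and no ES line (left) and of 2384 regions with a peak in 3 ES lines and no MEF (right) at which each iPS clone had a peak, with the mean ± SD beside each genotype (n = 4). The genotypes overlap in both panels, and 981E4 has the highest share on the left, 36.2%, and the lowest on the right, 75.3%.

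Among 21275 autosomal protein-coding genes, 318 (1.49%) had a promoter peak in all 4 Aid-/- clones and no MEF, and 91 (0.428%) had one in all 3 MEFs and no clone. A further 867 had a promoter peak in all 7 samples and 16032 in none. These counts moved with the samples. Those in the clones and no MEF numbered 510 without 981E1, 521 without 981E4, 503 without MEF#2 and 569 with MACS 1.4.1 alone, and those in MEFs and no clone numbered 140 without MEF#3. With the 33500 strongest peaks of each sample the order turned, to 68 and 360.

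The counts were also taken by CpG content. Promoters were called CpG-rich, intermediate or CpG-poor from the ratio of observed to chance-level CpGs and the GC content. Of 9992 CpG-rich promoters, 92 had a peak in all clones and no MEF and 58 the reverse. Of 7204 CpG-poor promoters, these counts were 90 and 8. Of 4079 intermediate promoters they were 136 and 25. CpG-rich promoters had a peak in 14.1, 12.9, 8.85 and 16.5% in 979F1, 979F3, 981E1 and 981E4, and in 8.08, 8.92 and 7.30% in the MEFs, so 981E1 lay among the fibroblasts.

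Of the genes of the 4 reprogramming factors, 3 had a promoter peak in all clones and no MEF (75.0%, against 1.49% of all genes). Pou5f1 (encoding Oct3/4), the central transcription factor of pluripotent cells, had promoter peaks at fold enrichments of 23.55, 30.49, 29.44 and 23.01 in 979F1, 979F3, 981E1 and 981E4. Sox2, its partner on DNA, had 14.22, 17.39, 13.89 and 11.85, with 402, 275, 61 and 343 tags. Myc, a growth regulator, had 10.88, 11.77, 10.64 and 10.29. None of these promoters had a peak in a MEF. Klf4, a zinc finger factor, had peaks over the gene but not at the promoter, at 14.38, 14.47, 8.94 and 13.89. All 25 summits of the clones in these 4 genes lay in exons, and the vectors carried the coding sequences of the factors, so a peak of an integrated vector and one of the cell's own gene cannot be told apart. The Aid+/+ clones also had 25 summits, all in exons. Which clones of either genotype received c-Myc is not given in the sources used here. In the MEFs, summits in these genes were found in Myc alone, with 1 in each culture at 33.51, 34.34 and 28.30. No ES line had a summit in Pou5f1 or Sox2, 1 of 3 had one in Klf4 and 2 of 3 in Myc.

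The markers of pluripotent cells were read as a check of the labels. Nanog, a homeobox factor of pluripotent cells, had no promoter peak in any Aid-/- clone, whereas MEF#1 had one of 37 tags at 7.93 and MEF#2 one of 50 tags at 7.18. Dppa5a (7.43) and Tdgf1 (7.99), expressed in pluripotent cells, each had a peak in 1 MEF and no clone. Esrrb, a nuclear receptor of the same network, had 337, 248 and 144 tags at its promoter in the MEFs at 25.54 to 27.53, and 979F3 had 19 tags at 16.14 at the same place. The leading promoter peaks of 979F1 (22 tags, 7.18) and 981E4 (16 tags, 7.70) lay at another start site of the gene, and 981E1 had none. Zfp42 had no promoter peak in any of the 7 samples, but over the gene the clones had 18.47 to 22.11 and the MEFs 28.60 to 29.89. Dppa3 likewise had peaks over the gene, at 10.01 to 14.99 in 3 clones and 18.31 to 22.52 in the MEFs. Pou5f1 and Utf1 went the other way. Pou5f1, given above, had a promoter peak in all 4 clones and no MEF, which cannot be told apart from that of an integrated vector. Utf1 had a promoter peak in 979F1 (9.23) and 981E4 (9.30) and in no MEF. The 1 marker left had no promoter peak in any of the 7 samples. Khdc3 (annotated as 2410004A20Rik), known as Ecat1, had a weak promoter peak in 979F1 (16 tags, 8.20) and 981E1 (11 tags, 10.55) and in no MEF. Over the gene, Khdc3 had peaks in all 4 clones, at 8.20 to 14.99, and in 1 MEF at 5.87.

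Of the 34 genes of the pluripotency list, 2 (Pou5f1 and Sox2) were on the clones' side (5.88%, against 1.49% of all genes). The vectors carried the coding sequences of both, so these peaks cannot be assigned to the cell's own genes. No other gene of the list was on the clones' side. On the MEFs' side was 1 gene (2.94%, against 0.428%). This was L1td1, an RNA-binding protein of pluripotent cells, with 60, 53 and 29 tags at 14.19, 10.99 and 7.20 in the MEFs. Over the gene, 3 clones also had an L1td1 peak, at 9.23 to 12.68. Sall4 and Tet1 had promoter peaks in all 7 samples, and 17 genes had none in any.

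Few fibroblast genes differed at their promoters, and those that did were on the clones' side. Of 32 fibroblast and mesenchymal genes, Col1a1, encoding a chain of collagen I, and Fap, a protease of activated fibroblasts, had promoter peaks in all clones and no MEF (6.25%, against 1.49% of all genes), and none had the reverse. Col1a1 had 26.52, 29.99, 21.43 and 17.71 in 979F1, 979F3, 981E1 and 981E4, and Fap had 33.84, 29.98, 23.75 and 26.94. Over the gene, Col1a1 had peaks in every sample of both groups, at 17.36 to 26.13 in the clones and 18.80 to 26.93 in the MEFs. The remaining list was mostly blank, with 28 genes carrying no promoter peak in any sample. Of the 8 marker genes of fibroblasts, Col1a1 alone had a promoter peak in any of the 7 samples. Over the gene, Prrx1, a mesenchymal homeobox factor, had peaks in all 4 clones at 16.94 to 30.03 and in 1 MEF at 7.68. Thy1, a surface protein of fibroblasts, had 22.56, 24.21, 19.79 and 8.47 in the clones and 11.15 in MEF#2 alone. Postn, a matrix protein, had 11.55 to 29.03 in the clones and 8.21 in 1 MEF. For these 3 genes the clones' peaks lay in the body of the gene. Col1a2 had peaks over the gene in 2 clones (10.01 and 22.43) and Col3a1 in 1 (15.83), and neither had one in a MEF. Twist1 and Snai2 had none in either group.

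Hox genes set position along the body axis. Of 39 genes of the Hox clusters, 5 (12.8%, against 0.428% of all genes) had a promoter peak in all MEFs and no clone, and none had the reverse. Another 14 had no promoter peak in any of the 7 samples, 1 had one in all and 19 were mixed. The 5 were Hoxa2, Hoxa5, Hoxb7, Hoxb8 and Hoxc4. Hoxa2 had 142, 78 and 72 tags in MEF#1, MEF#2 and MEF#3 at fold enrichments of 7.99, 5.24 and 9.0. Hoxa5 had 73, 93 and 74 tags at 7.25, 4.78 and 11.14. Hoxb7 and Hoxb8 share their peak in MEF#2 (37 tags, 7.72) and in MEF#3 (57 tags, 12.11), so these genes are not separate observations. Hoxc4 had 13.01, 12.32 and 9.60. None of these enrichments lay above the median peak of its own culture, which was 14.55 in MEF#1, 12.32 in MEF#2 and 12.48 in MEF#3. Over the gene, Hoxc4 had peaks in all 4 clones too, at 15.98 to 21.90 against 11.04 to 13.01 in the MEFs. The clones were not free of Hox peaks, since 10, 5, 2 and 14 of the 39 promoters had one in 979F1, 979F3, 981E1 and 981E4, against 11, 12 and 11 in the MEFs. The count in 981E4 was thus above every MEF, and that in 981E1 below. Among the 1-Mb windows with the most MEF DMRs was that of the Hoxa cluster, chromosome 6 from 52000001 to 53000000, where 8 of 13 MEF stretches were DMRs. The Hoxb window, chromosome 11 from 96000001 to 97000000, had 5 of 21.

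Germline and imprinted genes were mostly shared. Of 30 germline genes, which are silenced by promoter methylation in somatic cells, 16 (53.3%) had a promoter peak in all 7 samples, against 4.08% of all genes, among them Dazl, Sycp1, Sycp3, Mael and Brdt. On each side was 1 gene (3.33% of the list), against 1.49% of all genes on the clones' side and 0.428% on the MEFs' side. Nlrp4c had 11.28, 21.90, 11.87 and 9.24 in the clones, and Rnf17, a protein of germ cell granules, had 14.25, 21.12 and 11.04 in the MEFs. Over the gene both had peaks in every sample of the other group, Nlrp4c at 21.65 to 25.92 in the MEFs and Rnf17 at 20.02 to 38.39 in the clones. Of 17 imprinted genes with a protein-coding promoter, 12 (70.6%) had a peak in all 7 samples, including Peg3, Mest, Snrpn, Grb10 and Plagl1, and none was on either side. Single samples carried 12 to 16 of the 17 in the clones and 14 to 17 in the MEFs.

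Of 26 epithelial genes, Marveld2, a tight junction protein, was on the MEFs' side with 167, 133 and 203 tags at 13.28, 7.76 and 14.11, none was on the clones' side, and Krt8 and Pkp3 had peaks in all 7 samples. These are 3.85, 0 and 7.69% of the list, against 0.428, 1.49 and 4.08% of all genes. Over the gene, Marveld2 had peaks in every clone, at 13.01 to 18.40. The clones spread widely here, with 12, 9, 3 and 13 promoters in 979F1, 979F3, 981E1 and 981E4 and 7, 9 and 7 in the MEFs. Of 18 genes of DNA methyltransferases, Tet enzymes and deaminases, none was on either side, 2 (Apobec3 and Tet1) had peaks in all samples (11.1%, against 4.08% of all genes) and 11 in none. Of 355 genes named Zfp, Zfp560 and Zfp953 were on the clones' side (0.563%, against 1.49% of all genes) and Zfp36l2 on the MEFs' side (0.282%, against 0.428%), while 13 had peaks in all samples (3.66%, against 4.08%) and 301 in none. Over the gene, Zfp560 had peaks in every MEF, at 14.32 to 21.33.

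**Figure D4:**
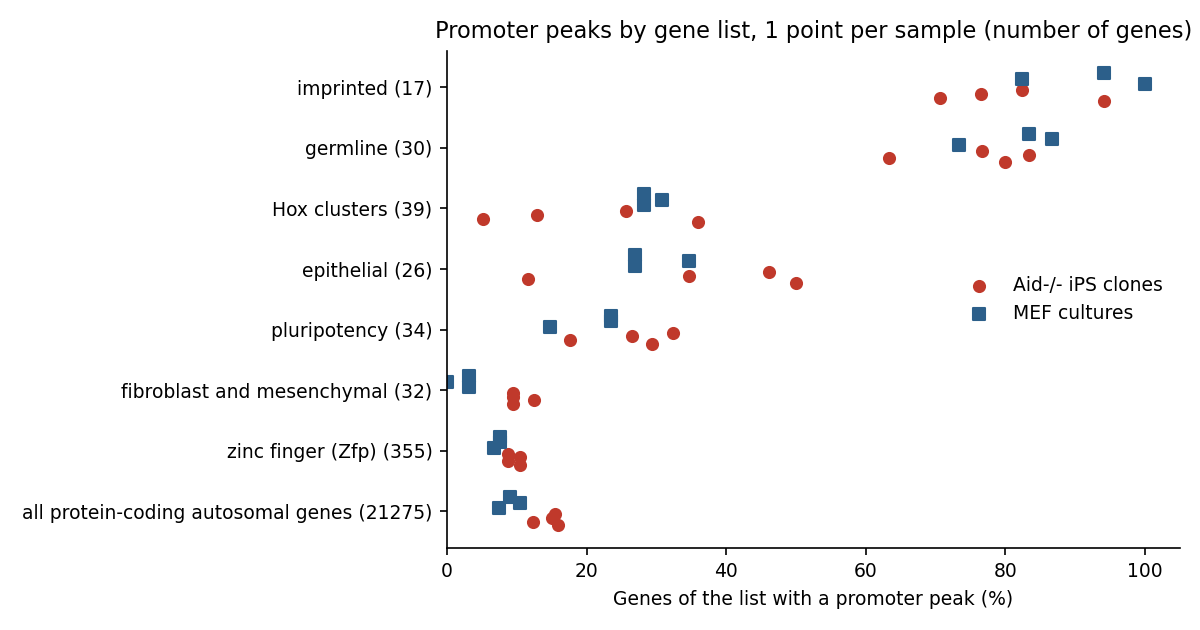
Share (%) of the genes of each list with a promoter peak, with 1 point per sample (circles for the 4 Aid-/- iPS clones, squares for the 3 MEFs) and the number of genes in brackets. Imprinted and germline promoters have the largest shares in both groups, and the clones spread from 2 to 14 of 39 Hox promoters.

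Over all genes, the strongest promoters of the clones with no peak in a MEF were, beside Sox2 and Sohlh1, those of H2-T23, Chrm2, L3mbtl3, Lrp1 and the predicted genes Gm10121 and Gm11003. Every annotated start site of a gene was counted, so a promoter here can lie inside a gene. The summit windows of Chrm2 (chr6:36473938-36474087), L3mbtl3 (chr10:26034253-26034402) and Lrp1 (chr10:127021668-127021817) lay inside their genes. Those of H2-T23, Sox2 and Sohlh1 also lay inside the gene. Sohlh1 had 127, 104, 76 and 97 tags at 28.64, 29.36, 25.04 and 24.58 in 979F1, 979F3, 981E1 and 981E4. H2-T23, a non-classical class I histocompatibility gene, had 121, 128, 69 and 106 tags at 22.01 to 27.81. Chrm2, a muscarinic acetylcholine receptor, had 23.24 to 28.90, and over the gene the 3 MEFs had peaks at 14.86 to 17.04. L3mbtl3, a chromatin protein that binds methylated lysine, had 31.56 to 36.89, and over the gene the 3 MEFs had peaks at 11.04 to 23.54. Lrp1, an endocytic receptor of fibroblasts and other cells, had 17.20 to 19.89, and its gene body carried 10 to 12 peaks in each MEF and 12 to 18 in each clone. A MEF DMR (chr10:127025006-127026043) also lay in an exon of Lrp1.

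The strongest promoters of the MEFs with no peak in a clone were those of Nr2f1, Arhgap15, H2-Q7, Tmem125, Mark4, Mrps12, 9330171B17Rik and CT009512.1. Of these too, the summit windows of H2-Q7, Tmem125 and Mrps12 lay inside the gene, as did those of Arhgap15, Mark4 and Nr2f1. The summit window of Arhgap15 was chr2:44029578-44029727 in a gene from 43604344 to 44251473. That of Mark4 was chr7:20014779-20014928 in a gene from 20010816 to 20043843, and that of Nr2f1 is given above. Nr2f1 had 260, 252 and 253 tags at 19.09, 21.59 and 22.06, and no peak anywhere in the gene in a clone. Mrps12, a mitochondrial ribosomal protein, had 163, 139 and 119 tags at 25.61 to 29.86 and likewise none in a clone. H2-Q7, another histocompatibility gene, had 24.58 to 31.14, while 979F1 and 979F3 had a peak elsewhere in the gene. Genes of the histocompatibility family are near-identical copies, so tags at H2-Q7 and H2-T23 may come from a relative. Tmem125, Arhgap15 and Mark4, a kinase of microtubule-associated proteins, had peaks in the gene body of every clone, with a fold enrichment of up to 32.38, 44.00 and 31.68.

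Regions with a peak in every one of the 7 samples were compared by their tags. Such a region has a peak in all samples by choice, so regions that appeared or vanished are not among them. Of 22824 regions, 5100 (22.3%) had more tags in the Aid-/- clones and 5431 (23.8%) fewer, by edgeR's quasi-likelihood test with TMM scaling at an adjusted p under 0.05, and 12221 had an unadjusted p under 0.05. Those with more tags had a median log2 difference of 0.83, and those with fewer tags one of -1.22. The median CpG density was 2.99 per 100 bp in the regions with fewer tags and 2.72 in those with more. Exons held 29.7% of the former and 14.5% of the latter, against 20.9% of all regions tested. Promoters held 5.30% and 1.55%, against 2.92% of all.

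The split depends on the scaling. With the tags left after the duplicate filter as library size, 17776 regions had more tags in the clones and 1693 fewer, and the median log2 difference over all regions moved from 0.06 to 1.21. With total tags as library size the counts were 3475 and 2617 and the median 0.35. All 5100 regions with more tags kept their sign under the 3 scalings, and so did 2854 of the 5431 with fewer. Without MEF#1, 3332 regions had more tags, and with MACS 1.4.1 alone 2190 had. With the MACS version as a covariate, the counts were 4934 and 5350.

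The clearest losses of tags were very large. In an intron of Lsamp, a neural cell adhesion gene (chr16:41575027-41577062), the clones had 25, 22, 15 and 29 tags and the MEFs 435, 359 and 270. This is 6.67 ± 0.527 and 122 ± 3.58 CPM (tags scaled to the total of the tested regions), a log2 difference of -4.17 ± 0.19 (SE, edgeR adjusted p = 5.26e-10). In an exon of Foxo3, a transcription factor of stress resistance (chr10:41916341-41917927), the clones had 52, 39, 28 and 32 tags and the MEFs 857, 710 and 783 (log2 difference -4.62 ± 0.22, edgeR adjusted p = 5.26e-10). Between genes 123 kb from Erbb4, a neuregulin receptor (chr1:69277550-69279431), the log2 difference was -4.17 ± 0.20, and 50.7 kb from Gm7275 (chr16:48021316-48022825) it was -4.18 ± 0.20. Regions were named only if the tags of the groups did not overlap, so this separation was set by choice. Of all 22824 regions tested, 10986 (48.1%) were apart in this way. Under both other scalings the 4 named regions remained lower in the clones, at -3.02 to -4.32 on the log2 scale. With peak length as an offset they were at -2.96 to -4.16. Their fold enrichment did not follow, with log2 differences of 0.22, -0.49, -0.37 and -0.37 (limma adjusted p from 0.0815 to 0.294). MACS sets a peak's height against a local background of up to 10000 bp, and the tags count the whole length of a peak.

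The clearest gains were smaller. In an intron of Mup2, a major urinary protein gene of a family of close copies (chr4:60121689-60123340), the clones had 217, 146, 158 and 175 tags and the MEFs 28, 29 and 27. The log2 difference was 2.42 ± 0.23 (SE, edgeR adjusted p = 1.93e-07), and 1.55 with peak length as an offset. In an exon of D930020E02Rik (chr14:69908944-69911239) the log2 difference was 2.20 ± 0.24, and between genes on chromosome 16 from 3135845 to 3137876 it was 2.00 ± 0.21. With the offset these were 0.71 and 0.86. The fold enrichment differed by 0.81, 0.82 and 1.15 on the log2 scale at the 3 regions (limma adjusted p = 0.0431, 0.0216 and 0.0119). Tags without overlap between the groups were again a condition of naming these 3, and their direction held under the other scalings. The 7 regions named were also chosen for small p-values, and no call at them was lost when a sample was left out.

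**Figure D5:**
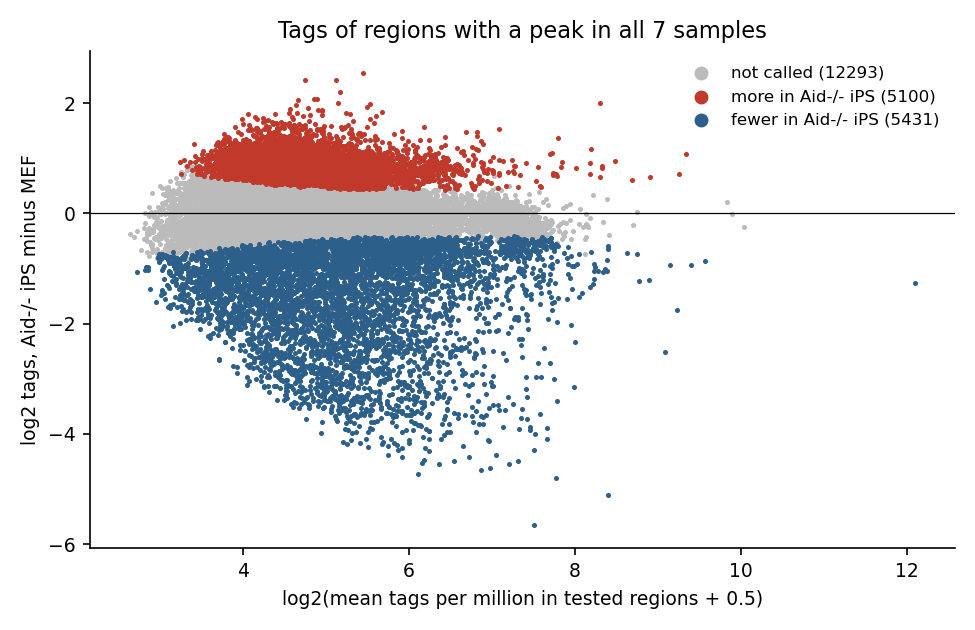
Difference in tags (log2, Aid-/- iPS minus MEF, TMM scaling) against mean level (log2 of CPM in the tested regions plus 0.5) for 22824 regions with a peak in all 7 samples, 1 point per region. The 5431 regions with fewer tags in the clones (blue) reach far lower than the 5100 with more (red) reach up, at medians of -1.22 and 0.83.

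The lists were also compared in pairs, each by the share of its merged peak regions that held a peak of both samples. The mean share was 68.5 ± 5.59% over the 6 pairs of Aid-/- clones, 58.1 ± 8.08% over the 3 pairs of MEFs and 42.6 ± 9.79% over the 12 pairs between them. Pairs share samples, so no test was made.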

How the data were processed

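DNA of 7 of the 14 samples was compared. Per the labels and the submitters' processing notes, reads were processed with CASAVA 1.8.1, aligned with BWA 0.5.9rc1 to mm9 (NCBI build 37), and peaks were called in each sample by MACS, without a control library. The deposited lists give for each peak whole tag counts, a peak p-value as 10 times its -log10, and a fold enrichment, a ratio to the local background. Per the file headers, the authors used a p-value of 1e-05, kept at most 2 tags at a position, and took a 10000 bp background window. Duplicate removal caps tags in dense regions, and a library with fewer distinct tags saturates earlier. No normalization between samples was applied by the authors.

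Autosomal peaks were used. Stretches common to all samples of a group were called DMRs where they overlapped no peak of the other group by 1 bp, and CMRs where every sample of it had one. Sample measures were compared by exact two-sided permutation tests over 35 splits (70 for 4 against 4 clones). Tag counts were summed per merged region with a peak in all 7 samples and tested with edgeR 4.0.16 (quasi-likelihood, TMM, Benjamini-Hochberg), with DESeq2 1.42.0 and limma 3.58.1 (on log2 fold enrichment) as alternatives. Overlaps were repeated with bedtools 2.31.1 and gave equal counts. The scripts were tested on simulated data. Genes, exons and UTRs came from GENCODE vM1. CpG-rich promoters had a 500 bp window with an observed to chance-level CpG ratio of at least 0.75 and a GC fraction of at least 0.55, and CpG-poor promoters none with a ratio over 0.48. Genes were named by rule: the factors, Nanog and Khdc3 always, genes of the lists with peaks in 1 group alone, the 8 strongest promoters, and the 4 strongest DMRs and 4 tag-test regions in each direction. Chromosome 18 was counted but not named, and some other items that the rules select are not reported here. The members, gene lists and rules were chosen with earlier results of these data known. Each sample is a clone or culture. Which MEF lot a clone came from is not given in the sources used here, so p-values measure the spread between these samples. An absent peak means that no enrichment was detected at this depth.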

Additional observations from a re-analysis of the deposited data

Results flagged for a closer look

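Among 14 groups of 4 values tested, 3 had a sample far from the other 3, and chance gives about 1 such group in 20. The clone 981E4 had 65859 autosomal peaks, while the other 3 Aid-/- clones had 86338 to 87965. The same clone had a peak at 75.3% of the regions of the ES lines that are absent from MEFs, against 93.3 to 94.6% in the others. It also had the most distinct tags of the Aid-/- clones, 11457860, and the lowest duplicate rate, 54.0%. Among the Aid+/+ clones, 967B2 had a peak at 23.2% of the fibroblast regions absent from ES lines, against 5.47 to 6.59% in the others, and its duplicate rate of 44.0% was the lowest of its group.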

How the results depend on the processing

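Of 217 comparisons of 17 results with an alternative setting, 148 stayed on the same side of the threshold and, for counts, within 1.5 times. Settings that use MACS 1.4.1 samples alone, or the MACS version as a covariate, were chosen after seeing the data. The peak number passed the threshold on all chromosomes (difference 38690) and at a peak p of at most 1e-10 (27285), both at exact permutation p = 0.0286. With the same number of strongest peaks, the promoter share differed by -0.941 percentage points, the share between genes turned to 1.23, and the CpG density differed by -0.093 per 100 bp. That setting gave 2209 Aid-/- iPS DMRs, 4991 MEF DMRs, and 68 and 360 promoters. A peak p of at most 1e-10 gave 2076 MEF DMRs and 144 promoters in MEFs alone. With MACS 1.4.1 alone, differences were 15.6 Mb covered, 3.55 in fold enrichment, 27.996 percentage points of tags, -0.329 of GC and -0.102 CpGs per 100 bp, none of which can pass with 3 against 2 samples. The promoter share then turned to 0.145, 569 promoters were found in the clones alone, and 2190 regions had more tags. Regions with more and fewer tags numbered 17776 and 1693 with filtered tags as library size. Regions with fewer tags numbered 2617 with total tags and 1717 with limma on log2 fold enrichment.

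Leaving out 1 sample gave 16.2 to 22.4 Mb covered, 2.46 to 3.58 in fold enrichment, 26.4 to 30.8 percentage points of tags, -0.765 to -0.460 of GC and -0.290 to -0.157 CpGs per 100 bp, again in designs whose smallest p is 0.0667 or 0.10. It gave 12574 to 21424 Aid-/- iPS DMRs, 1090 to 1532 MEF DMRs, 334 to 521 promoters in the clones alone, 94 to 140 in MEFs alone, and 3332 to 5439 regions with more tags. The promoter share ran from -0.446 to 0.139 (positive without 981E1), the share of fibroblast regions kept from 5.64 to 15.7, and the share of ES regions gained from -7.65 to 0.273. Without 981E4, 981E1 or 967B2 the kept share moved most, and only the gained share without 981E4 and the promoter share without 981E1 changed sign. A peak p of at most 1e-10 gave -1.16 percentage points of GC. The gained share was -2.59 at that threshold, -2.79 with the same number of strongest peaks and -8.83 with the ES line of most peaks alone. The causes were not tested. No paired analysis was possible because the iPS clones carry no replicate numbers that link them to a MEF culture. The duplicate filter and the distinct tags left, 6654272 to 11457860 in the clones, limit what an absent peak can show.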
